A study of Mus musculus with 12 samples.

Results

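Chemokines and chemokine receptors were examined in livers of 12 mice of the inbred strain C57Bl/6J. The members are the genes whose symbols name them as CC or CXC ligands or receptors (Ccl, Cxcl, Ccr and Cxcr with a number), together with Xcl1, Xcr1, Cx3cl1 and Cx3cr1. By this rule 51 of the 19938 genes tested were members, 34 ligands and 17 receptors, each measured by its probe set of highest mean level on the 12 arrays. The rule reads only symbols, but it was set with earlier results of these data known, so the shares below describe the members and are no independent evidence of a direction. Probe sets of Ccl21 and Ccl27 genes carry several symbols each and were left out.

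At 10 weeks of age, 6 mice had received by vein an adenovirus expressing a scrambled short hairpin RNA (sh scramble) and 6 an adenovirus whose hairpin targets Grb14 (sh Grb14), the gene of an adapter protein that restrains the insulin receptor. Livers were taken in the fed state 7 days after infection, and each gave 1 Affymetrix array of total RNA. Both groups therefore carried recombinant adenovirus, and livers without virus were not analysed here. The hairpin acts in whichever liver cells take up the virus, and neither the sex nor the caging of the mice is given in the sources used here.

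Chemokines are small secreted or membrane-bound proteins that guide white blood cells along gradients, and their receptors are G protein-coupled receptors on those cells. CC ligands mostly act on monocytes, T cells, eosinophils and dendritic cells, and CXC ligands with a glutamate-leucine-arginine motif act on neutrophils, while those without it mostly act on lymphocytes. In the liver, hepatocytes, Kupffer cells, sinusoidal endothelial cells and stellate cells can all make chemokines, and infiltrating leukocytes bring most of the receptors along with ligands of their own.

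The values are deposited log2 expression levels, with array medians between 7.06 and 7.17 and lower quartiles between 5.69 and 5.83. Grb14 lay between 10.08 and 10.25 (median 10.14) in sh scramble livers and between 8.02 and 8.44 (median 8.23) in sh Grb14 livers, with no overlap. Its change was −1.91 (SE 0.059), 3.75-fold lower (limma adjusted p = 7.99e-14; two-sided exact permutation p = 0.00216, the smallest possible). The 9 measured hepatocyte marker genes had mean levels of 13.39 to 13.45 per mouse in sh scramble and 12.89 to 13.09 in sh Grb14 livers, near the top of the scale. Expression differed widely between the groups: 65.3% of all genes passed the test (Benjamini-Hochberg adjusted p under 0.05), 25.8% higher and 39.5% lower in sh Grb14 livers, and the median change of all genes was −0.10.

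Most chemokine and receptor genes were higher in sh Grb14 livers. Of the 34 ligands, 23 rose (67.6%), 4 fell (11.8%) and 7 did not pass the test, and their median log2 change was 0.50. Of the 17 receptors, 10 were higher (58.8%), 1 was lower (5.88%) and 6 missed the threshold, and the median change was 0.61. The share past the test in either direction, 79.4% of ligands and 64.7% of receptors, stands beside 65.3% of all genes, whereas the shares higher stand beside 25.8%. At least 2-fold rises were found in 12 ligands and 6 receptors, 18 of 51 members, against 6.37% of all genes, and at least 4-fold rises in 6 ligands and 4 receptors against 1.58%. A fall of at least 2-fold was found in 1 member, Cxcl12, against 2.65% of all genes. The 2 groups of mice did not overlap in 32 of the 51 members (29 with sh Grb14 above and 3 below), against 41.2% of all genes (20.3% above and 20.8% below).

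Some of these calls depend on how the arrays are scaled. Centring each array on the median of the genes tested, an alternative added after seeing the data, lowers every change by 0.147, so that of all genes past the test 23.0% are higher in place of 39.5%. The ligands then divided into 18 higher and 9 lower, and the receptors into 9 higher and 5 lower. Of the 38 members past the test, 31 kept their direction and their call under each of the 18 alternatives in which they could be tested, and the other 7 are named with their values beside their results.

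**Figure D1:**
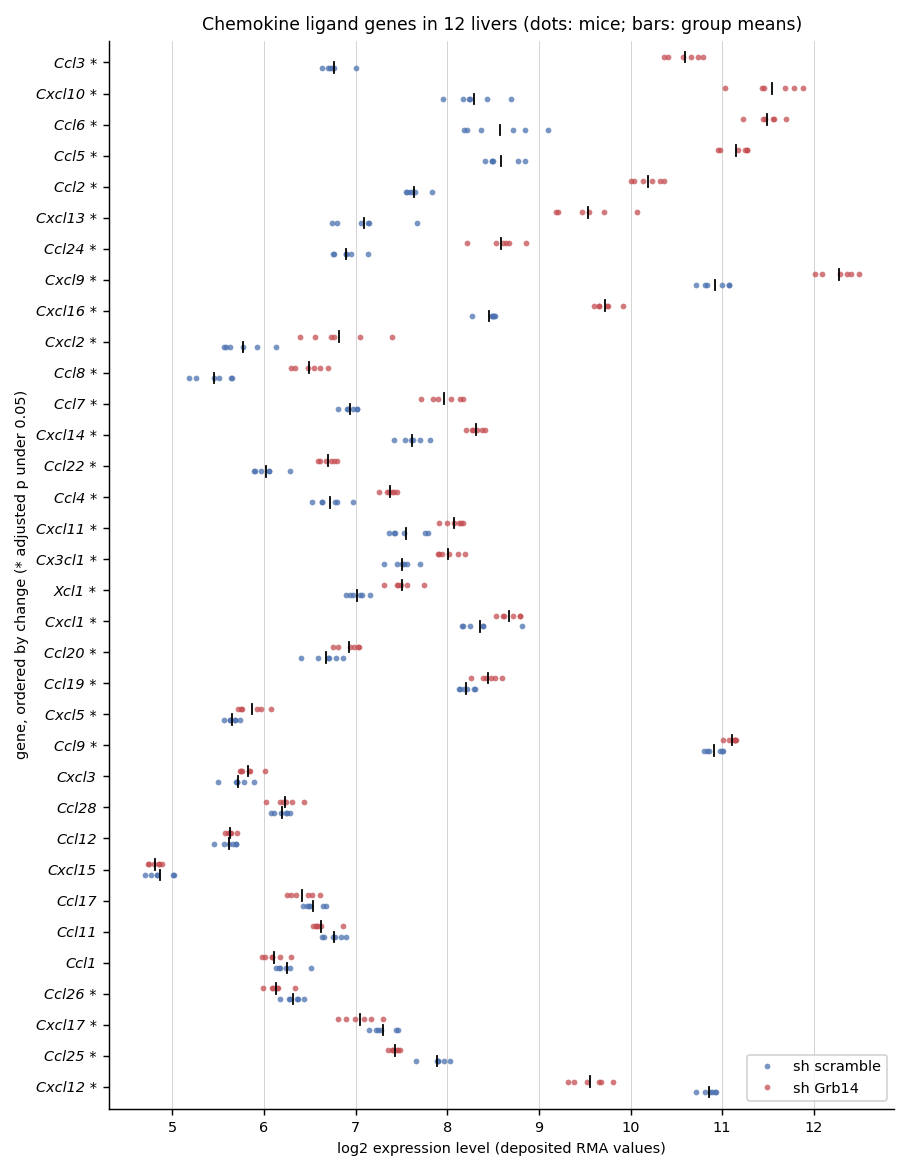
Log2 expression level of the 34 chemokine ligand genes (horizontal axis) in each of 6 sh scramble mice (blue) and 6 sh Grb14 mice (red), with short vertical bars at the group means and genes ordered by their change. The groups are apart for Ccl3 at the top (6.63 to 7.00 against 10.37 to 10.79) and, in the other direction, for Cxcl12 at the bottom.

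The ligands of Cxcr3, the receptor of activated T cells and NK cells, all rose. These ligands, Cxcl9, Cxcl10 and Cxcl11, lack the neutrophil-directed motif and are textbook targets of interferon-gamma. Cxcl10 lay between 7.95 and 8.70 (median 8.25) in sh scramble livers and between 11.04 and 11.88 (median 11.57) in sh Grb14 livers. All 6 sh Grb14 livers were above all 6 controls, and the change of 3.26 (SE 0.13), 9.55-fold, was the 28th largest rise among the genes tested (adjusted p = 2.06e-12). Cxcl9 went from 10.71 to 11.08 (median 10.92) to 12.02 to 12.49 (median 12.32), a change of 1.35 (SE 0.082) between groups that did not overlap. At the upper end of the scale changes can be compressed, which was not tested for Cxcl9. Cxcl11 had the smallest change of these ligands, 0.52 (SE 0.079), from a range of 7.37 to 7.79 (median 7.48) to 7.91 to 8.17 (median 8.10), again without overlap. Cxcr3 itself went from 7.53 to 7.77 (median 7.59) to 8.48 to 9.09 (median 8.82), 2.30-fold higher (log2 1.20, SE 0.082, adjusted p = 1.18e-09).

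Most listed markers of the cells that carry Cxcr3 moved in the same livers. Of 9 measured T cell markers 8 rose and 1 fell, with mean levels per mouse of 7.18 to 7.33 in sh scramble and 8.30 to 8.60 in sh Grb14 livers. Of 8 NK and cytotoxic cell markers 6 rose and 2 did not pass, with mean levels of 6.18 to 6.34 and 7.71 to 7.89. Those 2 were Ncr1 (0.16, SE 0.081, limma adjusted p = 0.0833) and Klrb1c, which lay below the lower quartile on every array. Cd3g, part of the T cell receptor complex, rose by 2.95 (SE 0.076), and the granzyme gene Gzmb rose by 3.46 (SE 0.087). The T cell marker that fell was Cd4 (−0.66, SE 0.053), the co-receptor of helper T cells. The part of these cells in the rise of Cxcr3 was not tested, and in whole liver more cells of a type and more RNA per cell cannot be told apart.

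The promoters of ligands that rose by different amounts and of the ligand that fell are shown because known inducers of chemokines act through short motifs there. Each sequence holds the 250 bases before the gene's start in the RefSeq promoter table (GRCm38.p6), 5′ to 3′ on the gene's strand, in lower case with motif matches in capitals. The motifs searched, on both strands, were the kappa-B consensus of NF-kB, GAAA followed after 2 bases by a further GAAA (the interferon-stimulated response element core), TTCNNNGAA (a STAT site) and TGANTCA (an AP-1 site), and overlapping matches are merged in the capitals. Cxcl10 lies on the minus strand at chr5:92348890-92349139, Cxcl9 on the minus strand at chr5:92328080-92328329, Cxcl2 on the plus strand at chr5:90903649-90903898, Ccl3 on the minus strand at chr11:83649379-83649628, and Cxcl12 on the plus strand at chr6:117168285-117168534.
Cxcl10: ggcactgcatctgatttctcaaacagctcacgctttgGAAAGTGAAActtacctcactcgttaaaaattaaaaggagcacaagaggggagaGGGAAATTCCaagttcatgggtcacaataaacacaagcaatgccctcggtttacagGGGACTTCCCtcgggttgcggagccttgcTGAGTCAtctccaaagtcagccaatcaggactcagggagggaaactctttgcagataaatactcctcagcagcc
Cxcl9: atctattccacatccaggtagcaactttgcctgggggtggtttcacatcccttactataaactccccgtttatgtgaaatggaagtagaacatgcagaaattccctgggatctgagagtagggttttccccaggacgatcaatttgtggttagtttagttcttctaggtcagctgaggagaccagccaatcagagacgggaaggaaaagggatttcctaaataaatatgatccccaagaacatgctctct
Cxcl2: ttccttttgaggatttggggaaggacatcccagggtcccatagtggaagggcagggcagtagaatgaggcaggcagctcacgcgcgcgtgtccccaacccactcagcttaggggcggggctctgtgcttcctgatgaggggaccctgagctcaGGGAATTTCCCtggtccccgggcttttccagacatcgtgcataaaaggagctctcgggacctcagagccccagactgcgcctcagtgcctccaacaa
Ccl3: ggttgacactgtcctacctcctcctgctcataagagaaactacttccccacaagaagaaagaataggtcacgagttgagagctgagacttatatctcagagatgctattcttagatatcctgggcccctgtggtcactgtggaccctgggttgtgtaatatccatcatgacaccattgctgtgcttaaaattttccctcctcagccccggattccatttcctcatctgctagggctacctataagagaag
Cxcl12: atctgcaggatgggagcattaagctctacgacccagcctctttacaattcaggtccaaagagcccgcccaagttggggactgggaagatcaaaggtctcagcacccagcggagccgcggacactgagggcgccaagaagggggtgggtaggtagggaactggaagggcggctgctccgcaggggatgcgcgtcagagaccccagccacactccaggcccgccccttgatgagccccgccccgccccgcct

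In the Cxcl10 window the script found the interferon element core at bases 213 to 204 before the start, kappa-B matches at 159 to 150 and 103 to 94, and the AP-1 match at 74 to 68. The Cxcl2 window holds 1 kappa-B stretch, matched on both strands at bases 97 to 88 and 96 to 87. The windows of Cxcl9, Ccl3 and Cxcl12 hold none of the 4 motifs in these exact letters. The promoter table held 37 of the 51 members, and Ccl2 and Ccl5 were not among them. A kappa-B match stood in 8 of these 37 genes (21.6%), against 3.9% of all 32851 windows in the table. Here and below a member counted if any of its windows held a match, and some members have several windows. The shares of members and of windows are therefore not strictly alike. The match stood in 5 of the 24 genes with a window that rose (Cxcl10, Cxcl2, Cxcl1, Ccl20 and Ccl9). Of the 3 that fell 1 held it (Ccr3), and of the 10 that did not pass the test 2 did (Cxcl3 and Ccr6). The interferon element core stood in 3 members, Cxcl10, Cxcl14 and Ccl19 (8.11% against 2.98% of all windows), the STAT site in 3 (8.11% against 7.02%) and the AP-1 site in 4 (10.8% against 6.75%). A match is a description of the letters in these windows and says nothing of whether a factor binds there.

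Ccl2 and its receptor Ccr2, which bring inflammatory monocytes out of the marrow and into tissue, rose together. Ccl2 lay between 7.55 and 7.84 (median 7.60) in sh scramble livers and between 10.01 and 10.37 (median 10.19) in sh Grb14 livers, 5.86-fold higher (log2 2.55, SE 0.069, adjusted p = 2.08e-14). Ccr2 went from 6.93 to 7.86 (median 7.11) to 9.03 to 9.38 (median 9.23), a change of 2.02 (SE 0.13). The widest spread of Ccr2 was among the controls, where replicate 5 had the highest value, and still no control reached any sh Grb14 liver. Ccl7, a further Ccr2 ligand, rose by 1.03 (SE 0.077), from 6.80 to 7.01 (median 6.94) to 7.72 to 8.17 (median 7.97). Ccl12, which also binds Ccr2, lay below the lower quartile of every array, with a change of 0.02 (SE 0.054, adjusted p = 0.807), so a difference there may not be measurable on these arrays. Of 9 measured markers of monocytes and recruited macrophages 8 rose and 1 did not pass, with mean levels of 7.77 to 7.94 in sh scramble and 9.69 to 10.04 in sh Grb14 livers. Among them Gpnmb rose by 4.79 and the chitinase-like gene Chil3 by 2.89. Their part in the rise of Ccr2 was not tested.

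The ligands of Ccr1, a receptor of monocytes, macrophages and neutrophils, held the largest change of all members. Ccl3, also called macrophage inflammatory protein 1-alpha, lay between 6.63 and 7.00 (median 6.73) in sh scramble livers and between 10.37 and 10.79 (median 10.62) in sh Grb14 livers. Every sh Grb14 liver was above every control, the change of 3.83 (SE 0.078) was 14.2-fold, and Ccl3 ranked 15th by size of rise among 19938 genes (adjusted p = 1.91e-15). Ccl6, a macrophage chemokine of rodents, rose by 2.92 (SE 0.13), from 8.19 to 9.10 (median 8.54) to 11.23 to 11.70 (median 11.51). Ccl5, also called RANTES and made by T cells, NK cells and macrophages, rose by 2.56 (SE 0.081), 5.91-fold, from 8.42 to 8.85 (median 8.50) to 10.95 to 11.27 (median 11.21). In none of these 3 did the groups overlap.

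Ccl9, a macrophage chemokine that is near Ccl6 in sequence, behaved differently. It was at 10.80 to 11.01 (median 10.92) in sh scramble and 11.01 to 11.15 (median 11.13) in sh Grb14 livers, so the groups just failed to overlap. Its change of 0.19 (SE 0.044, adjusted p = 0.00126) fell to 0.05 when arrays were centred on the median of the genes tested and then did not pass (adjusted p = 0.337; range over the alternatives 0.000338 to 0.337). Ccl4, or macrophage inflammatory protein 1-beta, went from 6.53 to 6.97 (median 6.70) to 7.26 to 7.46 (median 7.38), 1.57-fold higher (log2 0.65, SE 0.071). Ccr1 lay below the lower quartile in all 6 controls, at 5.22 to 5.64 (median 5.40), and at 7.30 to 7.76 (median 7.62) in sh Grb14 livers. Its rise of 2.15 (SE 0.096, adjusted p = 6.34e-12) can be understated, since no detection call was available at the control level. Of 8 Kupffer cell markers 4 rose and 4 did not pass, with mean levels of 8.84 to 9.18 and 9.58 to 9.78, and the part of macrophages in these rises was not tested. Cd5l and Adgre1 rose by 1.79 and 1.64, whereas Clec4f, which defines resident Kupffer cells, was not past the test at −0.06 (SE 0.098).

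The neutrophil receptor Cxcr2 had the largest rise among the receptors. Of its 4 listed ligands, Cxcl2, Cxcl1 and Cxcl5 rose, each by less, and Cxcl3 did not pass the test. Cxcr2 was below the lower quartile in all 6 controls, at 5.02 to 5.52 (median 5.11), and at 7.29 to 7.89 (median 7.58) in sh Grb14 livers, a change of 2.36 (SE 0.11, adjusted p = 7.77e-12). Cxcl2, a neutrophil attractant of activated macrophages, lay between 5.56 and 6.14 (median 5.70) in sh scramble, below the lower quartile in 4 of 6, and between 6.39 and 7.40 (median 6.75) in sh Grb14 livers. Its change was 1.05 (SE 0.15) with no overlap, and sh Grb14 replicate 6 was highest. Cxcl1, which hepatocytes also make, rose by 0.32 (SE 0.093), from 8.16 to 8.81 (median 8.32) to 8.53 to 8.79 (median 8.67), and sh scramble replicate 2 was above all sh Grb14 livers. Cxcl5 rose by 0.21 (SE 0.067) from control levels of 5.57 to 5.74 (median 5.66), all below the lower quartile, to 5.72 to 6.08 (median 5.84). Centred on the median of the genes tested, Cxcl1 changed by 0.17 (adjusted p = 0.0996; range over the alternatives 6.996e-05 to 0.0996) and Cxcl5 by 0.07 (adjusted p = 0.342; range 0.00503 to 0.342), and neither passed. The Cxcl1 call was also lost under quantile normalisation (0.21, adjusted p = 0.0635). Cxcl3 had a change of 0.11 (SE 0.069, adjusted p = 0.152), with overlapping ranges of 5.50 to 5.89 (median 5.71) and 5.73 to 6.02 (median 5.80). Cxcl3 passed under quantile normalisation (0.15, adjusted p = 0.0238), and its adjusted p over the alternatives ran from 0.0238 to 0.637. Of 9 neutrophil markers 8 rose and 1 did not pass, with mean levels of 6.34 to 6.53 in sh scramble and 7.44 to 7.96 in sh Grb14 livers, and their part in the rise of Cxcr2 was not tested. Among them the granule gene Ngp rose by 2.27 and Csf3r, the receptor of the granulocyte growth factor, by 1.74.

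Cxcr6, Xcr1 and Cx3cr1 have 1 listed ligand each, and each rose together with it. Cxcr6, found on resident T cells and NKT cells of the liver, lay between 6.32 and 6.59 (median 6.44) in sh scramble and between 8.42 and 8.99 (median 8.61) in sh Grb14 livers, 4.74-fold higher (log2 2.25, SE 0.095). Its ligand Cxcl16, a membrane-bound chemokine of endothelial cells and macrophages, rose 2.39-fold (log2 1.26, SE 0.059), from 8.27 to 8.52 (median 8.49) to 9.61 to 9.92 (median 9.70). Neither gene had overlapping groups.

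Xcr1 marks the dendritic cells that cross-present antigen, and its ligand Xcl1 is made by NK and activated CD8 T cells. Xcr1 went from 6.79 to 7.16 (median 6.99) to 8.65 to 9.25 (median 8.77), a change of 1.85 (SE 0.095, adjusted p = 3.32e-11). Xcl1 rose by 0.49 (SE 0.071), from 6.89 to 7.16 (median 7.01) to 7.31 to 7.75 (median 7.48). Of 7 dendritic cell markers 4 rose and 3 did not pass, with mean levels of 6.87 to 7.08 in sh scramble and 7.36 to 7.54 in sh Grb14 livers. Clec9a, which marks the same cross-presenting cells, rose by 2.23 (SE 0.0997). Flt3 rose by 0.62, and Clec10a and Siglech by 0.23 and 0.20 with overlapping groups. The 3 that did not pass were Batf3 (0.12, SE 0.084), Zbtb46 (−0.12, SE 0.064) and Cd209a (−0.19, SE 0.089). The part of dendritic cells in the rise of Xcr1 was not tested.

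Cx3cr1, the fractalkine receptor of monocytes and macrophages, lay between 7.77 and 8.31 (median 8.23) in sh scramble livers and between 8.70 and 9.47 (median 9.12) in sh Grb14 livers. The groups did not overlap, and the change was 0.94 (SE 0.12). Cx3cl1, fractalkine, rose by 0.50 (SE 0.071), from 7.31 to 7.71 (median 7.52) to 7.90 to 8.19 (median 7.98).

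**Figure D2:**
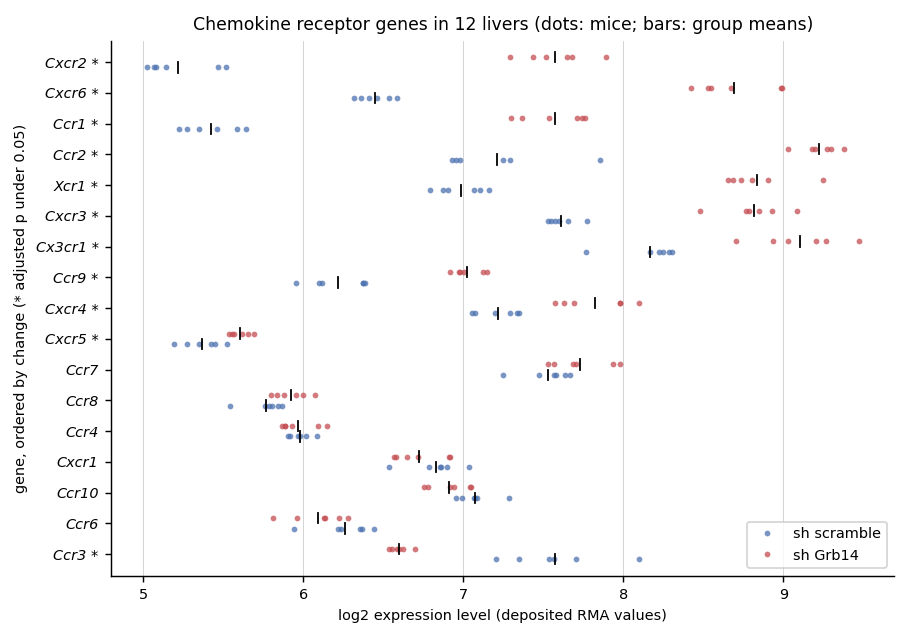
Log2 expression level of the 17 chemokine receptor genes (horizontal axis) in each of 6 sh scramble mice (blue) and 6 sh Grb14 mice (red), with bars at the group means and genes ordered by their change. Cxcr2, Cxcr6, Ccr1 and Ccr2 had changes of 2.02 to 2.36 with no overlap, and Ccr3 was the receptor that fell.

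In 3 receptor systems the receptor and a ligand moved in opposite directions. Cxcl12, or stromal cell-derived factor 1, is a constitutive chemokine of stromal and sinusoidal endothelial cells that retains cells bearing Cxcr4. Cxcl12 lay between 10.72 and 10.93 (median 10.88) in sh scramble livers and between 9.32 and 9.81 (median 9.59) in sh Grb14 livers. All 6 sh Grb14 livers were below all controls, and the fall of 2.46-fold (log2 −1.30, SE 0.073, adjusted p = 1.05e-10) was the 278th largest among the genes tested. Cxcr4 rose by 0.61 (SE 0.093), from 7.06 to 7.35 (median 7.25) to 7.58 to 8.10 (median 7.84), without overlap. Of 8 sinusoidal endothelial markers 3 rose and 5 fell, with overlapping mean levels of 9.58 to 9.79 in sh scramble and 9.66 to 9.78 in sh Grb14 livers. Among these Clec4g fell by 0.85, as Kdr, Oit3, Stab2 and Fcgr2b did by 0.76, 0.46, 0.26 and 0.20, while Clec1b, Lyve1 and Pecam1 rose by 1.25, 1.14 and 0.45. Of 8 markers of stellate cells and fibroblasts, which also make Cxcl12, 5 rose and 2 fell (Lrat by 0.33 and Reln by 0.35), and the mean levels were 9.31 to 9.66 and 9.82 to 10.23. Of 9 hepatocyte markers 8 fell and 1 did not pass, with falls of 1.38 in Tat and 0.94 in Cyp2e1. The part of any of these cells in the fall of Cxcl12 was not tested.

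Ccl25, a thymic and gut chemokine that attracts cells bearing Ccr9, fell by 0.46 (SE 0.061), from 7.66 to 8.03 (median 7.90) to 7.36 to 7.49 (median 7.43). A further Ccl25 probe set with a lower mean level changed by −1.06 (SE 0.084), in the same direction. Ccr9, found on gut-homing T cells and plasmacytoid dendritic cells, rose by 0.81 (SE 0.080), from 5.96 to 6.39 (median 6.24) to 6.91 to 7.15 (median 6.99). The groups did not overlap in either gene.

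Ccr3, the eotaxin receptor of eosinophils, was the receptor that fell. It lay between 7.20 and 8.10 (median 7.55) in sh scramble livers and between 6.54 and 6.70 (median 6.59) in sh Grb14 livers, a change of −0.98 (SE 0.11, adjusted p = 8.69e-07). The control values were spread widely and the sh Grb14 values narrowly (SD 0.31 and 0.058), with no overlap. Its ligand Ccl24, eotaxin 2, rose 3.23-fold (log2 1.69, SE 0.092), from 6.75 to 7.14 (median 6.89) to 8.22 to 8.86 (median 8.63). Ccl11, eotaxin 1, did not pass, with −0.14 (SE 0.068, adjusted p = 0.0874) and ranges of 6.64 to 6.90 (median 6.76) and 6.54 to 6.86 (median 6.58). Its call turned without sh Grb14 replicate 5, the highest of its group, to −0.19 (adjusted p = 0.0141), and over the alternatives its adjusted p ran from 0.00133 to 0.180. Ccl5 and Ccl7, which Ccr3 also binds, rose as given above. Markers of eosinophils were not examined.

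Chemokines that lay out lymphoid tissue changed unequally. Cxcl13, which attracts B cells and follicular T cells, lay between 6.75 and 7.67 (median 7.09) in sh scramble livers and between 9.18 and 10.07 (median 9.51) in sh Grb14 livers. Its rise was 5.43-fold (log2 2.44, SE 0.16, adjusted p = 5.80e-10), and the groups did not overlap. Its receptor Cxcr5 was near the bottom of the scale, at 5.19 to 5.52 (median 5.39) and 5.54 to 5.69 (median 5.59), below the lower quartile in 6 controls and 5 sh Grb14 livers. The Cxcr5 change of 0.23 (SE 0.061, adjusted p = 0.00313) did not pass when arrays were centred on the median of the genes tested (0.09, adjusted p = 0.162; range over the alternatives 0.000378 to 0.162). Of 5 measured B cell markers 3 rose and 2 did not pass, with overlapping mean levels of 6.48 to 6.81 and 6.67 to 7.00, and none of them rose by more than 0.40 (Cd79b).

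Ccl19, which guides dendritic cells and naive T cells through Ccr7, rose by 0.23 (SE 0.059), from 8.13 to 8.30 (median 8.20) to 8.26 to 8.60 (median 8.45), with overlap. Its 5 probe sets changed by 0.16 to 0.27, and 2 of them hold identical values. Near-identical copies of this gene can share signal. The Ccl19 call was lost under quantile normalisation (0.13, adjusted p = 0.0764) and with arrays centred on the median of the genes tested (0.09, adjusted p = 0.165; range over the alternatives 0.000546 to 0.165). Ccr7 did not pass, with 0.20 (SE 0.089, adjusted p = 0.0533) and ranges of 7.25 to 7.67 (median 7.57) and 7.53 to 7.98 (median 7.69).

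Ccl22, Ccl8, Ccl20 and Cxcl14 also rose, the third of them with overlapping groups. Ccl22, a dendritic cell chemokine that attracts regulatory T cells through Ccr4, rose by 0.67 (SE 0.071), from 5.89 to 6.28 (median 6.01) to 6.59 to 6.80 (median 6.70). Ccl8, monocyte chemoattractant protein 2, rose by 1.05 (SE 0.092) from control levels of 5.18 to 5.65 (median 5.48), all below the lower quartile, to 6.29 to 6.69 (median 6.52). Ccl20, which attracts cells bearing Ccr6, rose by 0.25 (SE 0.079) with overlapping groups, 6.40 to 6.87 (median 6.70) and 6.75 to 7.04 (median 6.96), and did not pass when centred on the median of the genes tested (0.10, adjusted p = 0.240; range over the alternatives 0.00572 to 0.240). Cxcl14, a chemokine of epithelial and stromal cells, rose by 0.70 (SE 0.065), from 7.42 to 7.81 (median 7.62) to 8.21 to 8.42 (median 8.30).

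The ligands Cxcl17 and Ccl26 fell slightly, with overlapping groups. Cxcl17, a mucosal chemokine, changed by −0.25 (SE 0.084, adjusted p = 0.0143), from 7.15 to 7.46 (median 7.26) to 6.81 to 7.30 (median 7.04). Ccl26 changed by −0.18 (SE 0.066, adjusted p = 0.0236), from 6.17 to 6.44 (median 6.32) to 5.99 to 6.34 (median 6.12). The Ccl26 call was lost under quantile normalisation (−0.13, adjusted p = 0.0512), without sh scramble replicate 1 (−0.16, adjusted p = 0.0570) and without sh Grb14 replicate 6 (−0.15, adjusted p = 0.0610; range over the alternatives 0.000363 to 0.0610).

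The other members did not pass the test, and their groups overlapped. These were the ligands Ccl1 (−0.15, SE 0.073), Ccl17 (−0.12, SE 0.073), Ccl28 (0.04, SE 0.068) and Cxcl15 (−0.05, SE 0.060), and the receptors Ccr4 (−0.01, SE 0.063), Ccr6 (−0.17, SE 0.092), Ccr8 (0.15, SE 0.067), Ccr10 (−0.16, SE 0.071) and Cxcr1 (−0.10, SE 0.086). Cxcl15 lay below the lower quartile on every array. Ccr7, Ccr8 and Ccr10 were nearest to the threshold, with adjusted p of 0.0533, 0.0531 and 0.0548. Leaving out 1 mouse brought some of them past it. Ccr7 passed without sh scramble replicate 1 or 6 or sh Grb14 replicate 1 or 3 (0.23 to 0.25). Ccr8 passed without sh scramble 2 or 6 or sh Grb14 2 or 4 (0.17 to 0.18), and Ccr10 did so without sh scramble 3 or 4 or sh Grb14 4 or 5 (−0.19 to −0.18). Ccr6 passed without sh scramble replicate 5 (−0.23), and Ccl1 without sh Grb14 replicate 5 (−0.18). With arrays centred on their medians Ccr7 (0.19), Ccr8 (0.14), Ccr10 (−0.17), Ccl1 (−0.16) and Ccl11 (−0.15) passed as well. Ccr8 (0.20) and Ccr10 (−0.16) passed under quantile normalisation and without the trend (0.15 and −0.16), and Ccr7 (0.20) and Ccr10 (−0.16) with dim genes left out. Centring on the median of the genes tested brought Ccl1 (−0.29), Ccl11 (−0.28), Ccl12 (−0.13), Ccl17 (−0.27), Cxcl15 (−0.19), Ccr4 (−0.16), Ccr6 (−0.32), Ccr10 (−0.31) and Cxcr1 (−0.25) past the test as lower.

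Ligands and receptors were then set side by side over 33 textbook pairs, which join all 17 receptors with 29 of the ligands. In 17 pairs both genes rose, and in 0 pairs did both fall. In 5 pairs they moved in opposite directions, 3 of them with Ccr3 as the receptor and the others Ccr9 with Ccl25 and Cxcr4 with Cxcl12. In 8 pairs 1 of the genes did not pass the test, and in 3 pairs neither passed. Pairs that share a gene are not independent, so no test was made over them. Ccl22, Ccl20, Ccl19, Ccl8 and Cxcl5 rose while their listed receptors Ccr4, Ccr6, Ccr7, Ccr8 and Cxcr1 did not pass. Cxcl5 was also listed with Cxcr2, which rose.

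**Figure D3:**
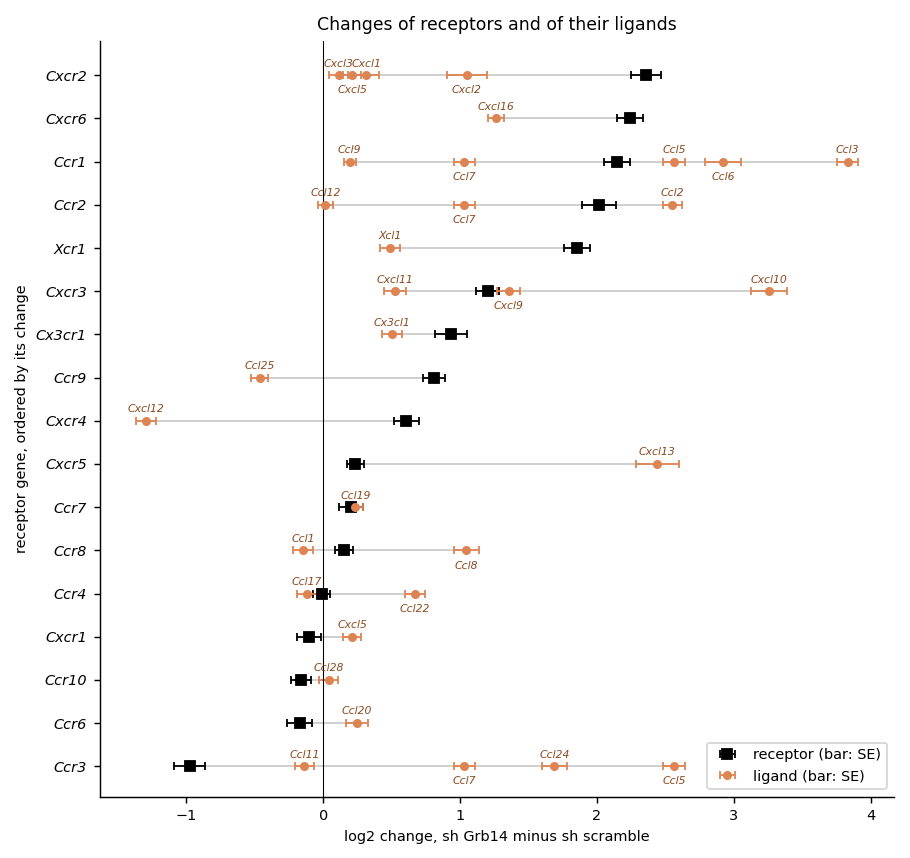
Log2 change, sh Grb14 minus sh scramble, of each receptor (black squares) and of its listed ligands (orange circles, named), with SE bars and receptors ordered by their change. Ccr1, Ccr2 and Cxcr3 lie among ligands that rose by 0.19 to 3.83, apart from Ccl12, and Cxcr4 (0.61) lies opposite Cxcl12 (−1.30).

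Chemokine genes stand in tandem groups in the genome, and most neighbours here changed unequally, as neighbouring genes often did over the whole array. In the order of the RefSeq gene table, which held 50 of the 51 members, 33 members formed 9 groups of neighbours. For each of the 24 adjacent pairs, the difference between the genes' log2 levels in each mouse was compared between the groups by a two-sided exact permutation test, with Benjamini-Hochberg adjustment over the 24. The change differed between neighbours in 20 of 24 pairs (adjusted exact p under 0.05), and 17 of these had the smallest p possible (0.00216, adjusted 0.00306). Over all 18382 adjacent pairs of genes tested, taken by the same rule, 47.1% had this smallest p, beside 70.8% of the member pairs. At an unadjusted exact p under 0.05 the shares were 66.2% and 83.3%, and the median size of the difference was 0.34 and 1.10. In the group of Ccl5, Ccl9, Ccl6, Ccl3 and Ccl4, the Ccl3 change exceeded that of its neighbour Ccl4 by 3.18, and the Ccl9 change was below that of Ccl6 by 2.73. In the group of Ccl2, Ccl7, Ccl11, Ccl12, Ccl8 and Ccl1, rises of 1.03 to 2.55 in Ccl2, Ccl7 and Ccl8 stood beside changes of −0.15 to 0.02 in the other members, none of which passed.

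Neighbouring receptors differed too. In the group of Ccr9, Cxcr6, Xcr1, Ccr1, Ccr3 and Ccr2, Ccr3 fell by 0.98 between Ccr1 and Ccr2, which rose by 2.15 and 2.02. The Ccr1 change exceeded that of Ccr3 by 3.12, and Ccr3 minus Ccr2 was −2.99. Cxcr2 rose while its neighbour Cxcr1 had a change of −0.10 that did not pass, a difference of 2.46. The pairs whose changes could not be told apart were Cxcl5 and Cxcl3 (difference 0.10, adjusted exact p = 0.262), Ccl22 and Cx3cl1 (0.17, 0.131), Xcr1 and Ccr1 (−0.29, 0.0891), and Ccl11 and Ccl12 (−0.15, 0.118). Probe sets differ in response and background, so a small change on a dim probe set can be an understated one, and how far that holds was not tested.

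**Figure D4:**
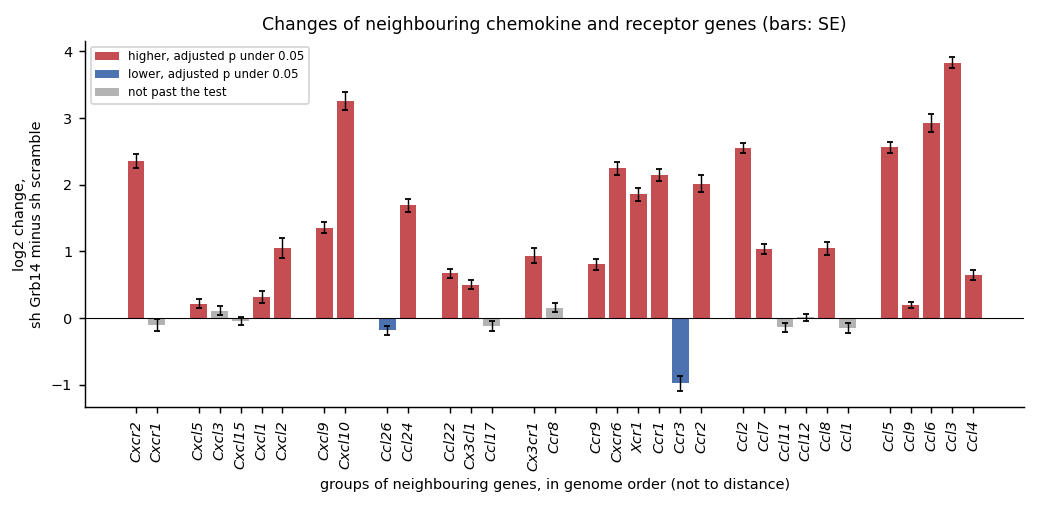
Log2 change, sh Grb14 minus sh scramble, with SE bars for the 33 members in 9 groups of neighbouring genes, placed in genome order with no distances. Red and blue bars passed the test, higher and lower, and grey bars did not. Ccr3 (−0.98) is the blue bar among risen receptors, and Ccl4 (0.65) stands beside Ccl3 (3.83).

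Genes around the chemokine system were counted from lists, and the shares stand beside 25.8% of all genes higher and 39.5% lower. Of 27 measured genes that carry signals behind chemokine receptors, 25 rose (92.6%) and the median change was 1.04. Rgs1, which shortens G protein signals, rose by 2.79 (SE 0.12), and Dock2 and Vav1, which activate Rac in migrating leukocytes, rose by 2.23 (SE 0.061) and 1.99 (SE 0.068). The gene that fell was Plcb3 (−0.18, SE 0.051, with overlapping groups), a phospholipase that is widely expressed, and Grk5 did not pass (0.07, SE 0.094). Many of these genes belong to leukocytes, whose markers rose as given above, and how much of this list they account for was not tested.

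Among 9 atypical chemokine receptors and chemokines outside the naming rule, 4 rose (44.4%) and 2 fell (22.2%), and the median change was 0.13. The share past the test in either direction, 66.7%, was near the 65.3% of all genes. Ccrl2, which presents chemerin, rose by 1.05 (SE 0.084), Cklf by 0.99 (SE 0.087), and the platelet chemokine Ppbp by 0.68 (SE 0.11). The scavenging receptor Ackr4, which removes Ccl19 and Ccl25, fell by 0.49 (SE 0.072). Ccr1l1 fell by 0.20 (SE 0.074) with overlapping groups, below the lower quartile in 5 controls and all 6 sh Grb14 livers. Ackr3, which takes up Cxcl12, rose by 0.24 (SE 0.075), also with overlap.

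Of 15 cytokines and sensors known to induce chemokines, 8 rose (53.3%) and 2 fell (13.3%), and the median change was 0.51. Here too the share past the test in either direction, 66.7%, was near the 65.3% of all genes. Tlr4, the endotoxin receptor, rose by 2.11 (SE 0.10), Il1a by 1.58 (SE 0.086) and Ifng, the inducer of the Cxcr3 ligands, by 1.41 (SE 0.099). Il17a and Lta fell by 0.18 (SE 0.067) and 0.22 (SE 0.093), each with overlapping groups. Il6, Ifnb1 and Csf2 lay below the lower quartile on every array, where a change may not be measurable. Of 10 genes whose products cleave, release or present chemokines 8 rose and 2 fell, with a median of 0.93. Mmp12, the macrophage elastase, rose by 3.84 (SE 0.13) and Mmp2, a protease that clips Cxcl12, by 1.47 (SE 0.11). Dpp4, which trims the ends of Cxcl10, Cxcl12 and other chemokines, fell by 1.16 (SE 0.054), and Sdc4, a proteoglycan of the cell surface, fell by 0.84 (SE 0.063). Adam10, which sheds Cxcl16 and Cx3cl1, rose by 1.04 (SE 0.057).

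**Figure D5:**
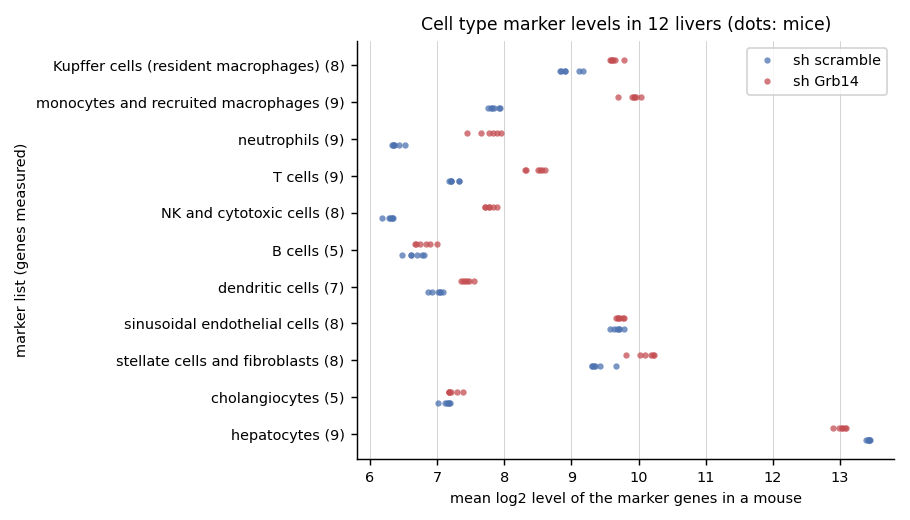
Mean log2 level of each cell type's marker genes (horizontal axis) in each of 6 sh scramble mice (blue) and 6 sh Grb14 mice (red), with the number of genes measured beside each list. Neutrophil markers lie at 6.34 to 6.53 against 7.44 to 7.96, and those of B cells, sinusoidal endothelial cells and cholangiocytes overlap.

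Of 5 bile duct cell markers 1 rose (Epcam, by 0.48) and 4 did not pass, with mean levels of 7.02 to 7.20 in sh scramble and 7.17 to 7.38 in sh Grb14 livers.

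The spread among mice of a group was small beside the larger changes. Over the 33 members that rose, the mean level per mouse was 7.21 to 7.32 in sh scramble and 8.51 to 8.69 in sh Grb14 livers. These genes were taken because they rose, so the gap between the groups follows from that choice. Over all 51 members the mean levels were 7.03 to 7.13 and 7.80 to 7.92. In the sh Grb14 group, replicate 3 had the highest value for 12 and replicate 6 for 11 of the 33 genes, and replicate 2 had the lowest for 13. In the sh scramble group no mouse was highest for more than 8 of the 33 genes, and replicates 1 and 2 were lowest for 10 and 9. These counts share mice and arrays and are given as a description.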

How the data were processed

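Total RNA of 12 livers (6 sh scramble, 6 sh Grb14) was hybridised as biotinylated cDNA, 1 Affymetrix array per liver, per the labels' protocols. The deposited values are log2 expression levels of 35556 probe sets. RMA and Partek are named in the submitters' processing notes, and versions, settings and the build of the probes are not given in the sources used here. No scan date or batch is given. No depth applies to arrays, and 6 arrays per group limit the precision.

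Probe sets were named through the platform annotation: 21789 had 1 symbol, 1621 several and 12146 none listed. Entrez identifiers of 21698 matched RefSeq (GRCm38.p6), and 0 symbols changed. All 19938 genes (1 probe set each, the highest mean) entered a single fit over the 12 arrays with lmFit and eBayes with trend, with no covariate and no filter (limma 3.58.1, R 4.3.3), and Benjamini-Hochberg adjustment. The fit was run on simulated data in which only a small share of genes was changed. That setting is unlike the wide difference between the groups here, so it does not test the fit under these conditions. Nothing in the labels says how the mice were housed or processed together. The p-values set the difference between the groups against the spread among these samples. The labels number all sh scramble mice before all sh Grb14 mice in an unbroken run. Any effect of the order of injection, caging or processing therefore cannot be told apart from that of the hairpin.

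Members, lists and pairs were chosen with earlier results of these data known. All members are named, and full ranges are given for the 12 ligands and 8 receptors with the largest changes past the test, those that moved against their class and their partners. From each list the 3 largest changes past the test are eligible. Other genes were named after their values were seen. Alternatives were median centring, quantile normalisation, no trend, a filter on dim genes (mean level above 6.34), the mean of all probe sets, and leaving out each mouse.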

Additional observations from a re-analysis of the deposited data

Results flagged for a closer look

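In each group of 6 mice the highest or lowest value was compared with its nearest neighbour over the members, Grb14 and the mean levels of the marker and pathway lists. Of 134 groups of values examined, 12 had an end value whose gap to the nearest other as a share of the group's range exceeded Dixon's critical value, where chance gives about 1 in 20, or 6.7.

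Among sh scramble mice, replicate 2 was highest for Ccl2 (7.84, next 7.65) and Cxcl1 (8.81, next 8.40) and lowest for Cxcl16 (8.27, next 8.48). Replicate 5 was highest for Ccl3 (7.00, next 6.76), replicate 4 lowest for Ccr8 (5.54, next 5.76) and replicate 1 lowest for Cx3cr1 (7.77, next 8.17). In the sh Grb14 group, replicate 5 was highest for Ccl11 (6.86, next 6.62).

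For mean levels of lists, sh Grb14 replicate 4 was highest for Kupffer cell markers (9.78, next 9.65) and replicate 2 lowest for markers of monocytes and recruited macrophages (9.69, next 9.91). In sh scramble, replicate 4 was lowest for NK and cytotoxic cell markers (6.18, next 6.28), replicate 6 highest for stellate cell and fibroblast markers (9.66, next 9.43) and replicate 3 lowest for the genes that cleave, release or present chemokines (9.22, next 9.33).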

How the results depend on the processing

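Of the 38 members past the test, 31 kept their direction and call under each of the 18 alternatives they could be tested in, and the calls of Ccl19, Ccl20, Ccl26, Ccl9, Cxcl1, Cxcl5 and Cxcr5 were lost under some, as given above. The count of ligands higher ran from 18 to 23, and 18 of the main 23 were shared by the lowest, while receptors higher ran from 9 to 12 against 10. With arrays centred on the median of the genes tested, 12943 genes, 9 ligands and 5 receptors were lower, against 7868, 4 and 1, because the centring lowers every change. Receptors lower numbered 2 with arrays centred on their medians, under quantile normalisation, without the trend and with dim genes left out, and 1 to 2 when 1 mouse was left out. Changes that turned sign, none past the test as reported, were those of Ccl12 (−0.13, adjusted p = 0.0224), Ccl28 (−0.11) and Cxcl3 (−0.033) with centring on the genes tested, and of Ccr4 under quantile normalisation (0.033). With 1 mouse left out, Ccl12 ran from −0.016 (without sh scramble replicate 4) to 0.031, Ccl28 from −0.00017 (without sh Grb14 replicate 5) to 0.082, and Ccr4 from −0.046 to 0.011, above 0 without sh scramble replicate 2 or sh Grb14 replicate 1, 2 or 6. The filter on dim genes left 38 of 51 members. No paired analysis was possible because the labels give each mouse its own number and no shared one. Members below the lower quartile have no detection call, so their changes can be understated.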
